A study of Mus musculus with 3 samples.

Results

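The mouse genes that encode matrix metalloproteinases (MMPs), their tissue inhibitors (TIMPs), the ADAMTS and ADAMTS-like proteins and the lysyl oxidases were examined in single-nuclei RNA sequencing (sNuc-Seq) of liver. They were taken by symbol alone, as every gene named Mmp, Adamts or Adamtsl with a number, together with Timp1 to Timp4, Lox and Loxl1 to Loxl4. This gave 55 of the 32285 genes in the tables, with 22 MMPs, 4 TIMPs, 19 ADAMTS, 5 ADAMTS-like and 5 lysyl oxidase genes. All 55 had at least 1 unique molecular identifier (UMI, a counted transcript) in the nuclei kept, 41 had at least 50, and 14 had fewer.

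Nuclei came from frozen liver of 3 male C57BL/6J mice, with 1 library each. The control mouse (ND) received a normal diet. The STZ-HFHC mice, 1 and 2, had been injected with 0.2 mg of streptozocin, a toxin of pancreatic islet cells, at 3 days of age, and were fed a high-fat and high-cholesterol diet (41 kcal% fat, 43 kcal% carbohydrate) from 4 weeks, and their livers are labelled as MASH-related liver fibrosis. Their age at collection is not in the labels. No library had streptozocin with the normal diet, so the toxin and the diet cannot be told apart, and with 1 ND mouse no difference between conditions could be tested over animals. The sample titles also hold a code that begins with 3rd in ND and with 2nd in both STZ-HFHC libraries. Its meaning is not given, and whatever it stands for cannot be told apart from the condition. The filters kept 8494, 8921 and 10921 nuclei of ND, STZ-HFHC 1 and STZ-HFHC 2, which held 42715797, 44350401 and 55632923 UMIs.

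MMPs and ADAMTS proteins are zinc proteases that are made as inactive precursors and act outside the cell or at its surface. MMPs cleave collagens, elastin and proteoglycans, whereas ADAMTS proteins cleave proteoglycans or trim the ends of procollagens, and the ADAMTS-like proteins lack the protease domain and bind matrix. TIMPs block the active site of these proteases, and the lysyl oxidases join collagen and elastin chains to each other. In liver, hepatic stellate cells and macrophages are the textbook sources of many of them.

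Clusters of nuclei were named from marker genes that held none of the 55 members. The ND, STZ-HFHC 1 and STZ-HFHC 2 libraries gave 3953, 3016 and 4779 hepatocyte-like, 1194, 870 and 1005 endothelial-like, 1181, 681 and 1386 stellate-like, and 244, 1350 and 909 macrophage-like nuclei. Monocyte-like, T or NK-like, B-like, cholangiocyte-like and mesothelial-like nuclei were fewer, with 32 to 149 per class in ND. Another 1547, 1770 and 1623 nuclei (18.2%, 19.8% and 14.9%) stayed unnamed, among them a cluster 9 with 1465 ND nuclei and a cluster 7 with both endothelial and macrophage markers, and are in no class comparison. ND and STZ-HFHC nuclei of 1 name mostly lay in different clusters: cluster 13 held 1043 of the ND stellate-like nuclei, while cluster 5 held 138, 678 and 1382 nuclei of the 3 libraries in that order. Levels are UMIs of a gene per 1000000 UMIs of a class in a library (CPM), with the nuclei of that class summed, and values in threes are in the order ND, STZ-HFHC 1, STZ-HFHC 2. Over all nuclei, more nuclei of a type and more RNA per nucleus cannot be told apart.

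Mmp12, the macrophage elastase, had the largest mean ratio of the 41 members with at least 50 UMIs. Over all nuclei it had 19, 3570 and 1162 UMIs, or 0.445, 80.5 and 20.9 CPM. Both STZ-HFHC libraries were far above ND, and their levels also differed from each other. The ratio to ND was 181 (95% counting interval 116 to 301) and 47.0 (29.9 to 78.3), respectively. Such intervals cover counting error only, and no interval for a difference between mice can be had from 1 ND mouse.

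In macrophage-like nuclei, Mmp12 had 2, 1828 and 463 UMIs, or 1.94, 508 and 166 CPM. At least 1 UMI was found in 2 of 244 ND nuclei, in 412 of 1350 and in 152 of 909, and a single nucleus held up to 69 UMIs in STZ-HFHC 1. The 2 ND counts gave ratios of 261 (72.3 to 2160) and 85.5 (23.5 to 708), and STZ-HFHC 1 was 3.06 times STZ-HFHC 2 (2.76 to 3.39). Per 1000 UMIs of the 14 macrophage markers over all nuclei, Mmp12 had 3.14, 154 and 68.6 UMIs. The order of the 3 libraries was thus the same relative to macrophage transcripts as to all transcripts. ND macrophage-like nuclei lay in cluster 20 (228 of 244), with Clec4f, Cd163 and Timd4 among its leading genes, and those of STZ-HFHC in cluster 4, with Gpnmb, Atp6v0d2 and Lgals3.

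Mmp12 was also counted in every other class of both STZ-HFHC libraries. In hepatocyte-like nuclei it was at 0.165, 16.9 and 5.75 CPM, and in stellate-like nuclei at 0.290, 52.2 and 18 CPM. These levels were 3.32% and 3.46% of the macrophage-like level in hepatocyte-like nuclei of STZ-HFHC 1 and 2, where the summed macrophage markers stood at 4.18% and 6.35% of theirs. In stellate-like nuclei Mmp12 was at 10.3% and 10.9% and the macrophage markers at 14.1% and 18.5%. In endothelial-like nuclei the values were 10.6% and 9.62% for Mmp12 against 16.0% and 20.6% for the markers. Of the 8 classes other than macrophage-like, all had Mmp12 below the share of the macrophage markers in both STZ-HFHC mice, except B-like nuclei of STZ-HFHC 1 with 21.1% against 18%. Between ND and STZ-HFHC, the macrophage markers in stellate-like nuclei were at 175, 358 and 273 CPM. The part of RNA from other nuclei in the Mmp12 level of these classes was not tested. The unnamed clusters 7, 8 and 19 held 561, 263 and 33 Mmp12 UMIs of STZ-HFHC 1 (140, 104 and 145 CPM), which are in none of the named classes.

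**Figure D1:**
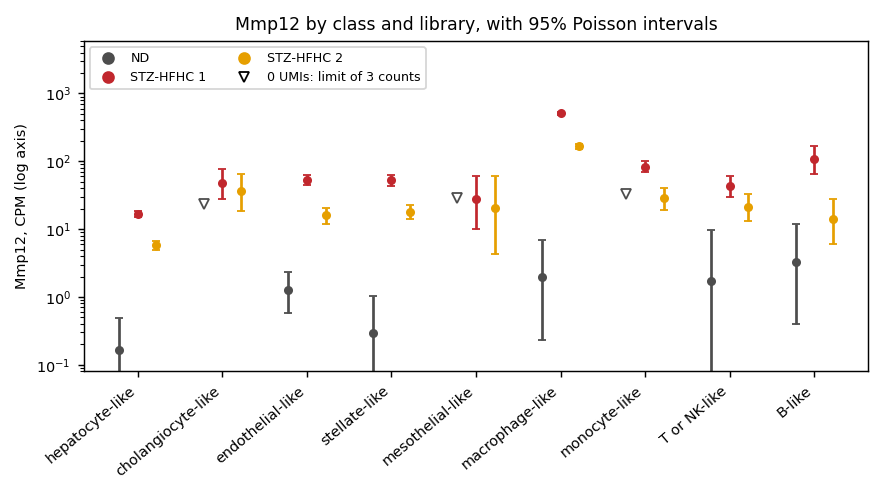
Level of Mmp12 (CPM, log axis) in 9 classes of nuclei of ND, STZ-HFHC 1 and STZ-HFHC 2. Points are UMI sums with 95% Poisson intervals and open triangles mark the limit of 3 counts where no UMI was found. Macrophage-like nuclei are highest in both STZ-HFHC libraries, at 508 and 166 CPM.

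Mmp12 (ENSMUSG00000049723, chr9:7344381-7369499 of GRCm38, plus strand) stands in a run of 9 MMP genes within 427 kb of chromosome 9. By position the genes are Mmp13, Mmp12, Mmp1b, Mmp3, Mmp10, Mmp8, Mmp27, Mmp20 and Mmp7, and 6 of them had a UMI in macrophage-like nuclei. Mmp13, a collagenase, had 1, 89 and 8 UMIs there (0.971, 24.7 and 2.87 CPM). It was high in 1 of the STZ-HFHC mice, and the ratio of STZ-HFHC 2 to ND, 2.95 (0.396 to 131), was within counting error. Mmp27, whose substrates are little known, had 5, 74 and 48 UMIs (4.85, 20.5 and 17.2 CPM). Per 1000 macrophage marker UMIs over all nuclei, Mmp27 was at 7.27, 9.17 and 9.63. Over all nuclei it had 44, 212 and 163 UMIs, so most of them lay outside macrophage-like nuclei. Within macrophage-like nuclei its log2 ratios relative to the macrophage markers were 0.52 and 1.05, against 6.28 and 5.44 for Mmp12. Mmp1b overlaps Mmp12 on the other strand and had only 0, 3 and 1 UMIs over all nuclei, and Mmp3 had 6 UMIs, all in 1 stellate-like nucleus of STZ-HFHC 1.

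**Figure D2:**
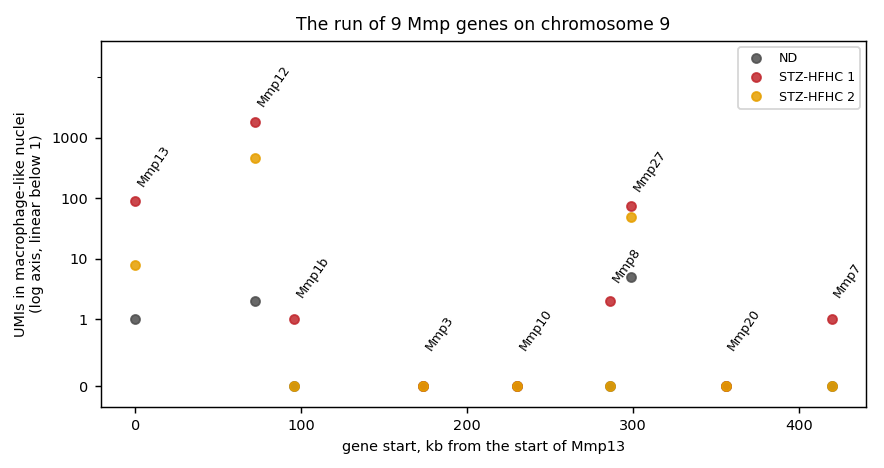
UMIs in macrophage-like nuclei (y axis, log scale, linear below 1) of the 9 Mmp genes of the chromosome 9 run, placed by gene start in kb from the start of Mmp13 (x axis). Mmp12 has 1828 and 463 UMIs in STZ-HFHC 1 and 2, and the other genes have at most 89.

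The 250 bases before the start of 3 genes of this run are shown because they were the genes of the run counted most often in these nuclei and their levels differed. They are given 5′ to 3′ on the plus strand of GRCm38.p6, at the starts annotated by RefSeq, and the capitals mark TGANTCA, the site of the AP-1 (Fos and Jun) factors, where it was found. For Mmp12 the second of 2 annotated starts is shown, since the window of the first held no such match.
Mmp12, chr9:7347124-7347373: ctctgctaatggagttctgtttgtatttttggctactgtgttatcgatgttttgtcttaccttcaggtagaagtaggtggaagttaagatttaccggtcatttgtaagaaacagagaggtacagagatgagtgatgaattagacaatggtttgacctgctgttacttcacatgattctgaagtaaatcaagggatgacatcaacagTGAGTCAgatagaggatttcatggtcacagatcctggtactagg
Mmp13, chr9:7272264-7272513: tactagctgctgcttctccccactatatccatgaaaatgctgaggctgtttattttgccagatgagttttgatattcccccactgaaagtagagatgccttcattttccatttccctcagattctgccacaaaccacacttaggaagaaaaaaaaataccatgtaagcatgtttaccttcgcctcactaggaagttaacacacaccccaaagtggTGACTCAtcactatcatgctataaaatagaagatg
Mmp27, chr9:7571146-7571395: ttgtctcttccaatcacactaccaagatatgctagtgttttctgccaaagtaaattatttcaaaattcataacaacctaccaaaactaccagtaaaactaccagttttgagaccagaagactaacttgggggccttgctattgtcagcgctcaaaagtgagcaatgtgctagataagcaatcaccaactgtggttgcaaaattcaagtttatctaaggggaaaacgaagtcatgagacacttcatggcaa
The match ended 37 bases before the start in Mmp12 and 28 bases before it in Mmp13, and Mmp27 had none. TGANTCA is its own reverse complement in its fixed letters, so a match on 1 strand is a match on both. Of all 32851 RefSeq windows of this length, 6.75% held it, and of the 39 windows of the 36 members that could be matched, 7 did. All 7 belonged to the chromosome 9 run, namely Mmp10, Mmp12, Mmp13, Mmp1b, Mmp20, Mmp3 and Mmp7, of which only Mmp12 and Mmp13 reached 50 UMIs. A pair of other motifs was searched on both strands: AGGAAGT of the ETS factors stood in 7.69% of all windows and in those of 6 members, and TATAAA of the TATA box in 12.4% and in those of 9. A match describes the letters of a window and does not show that a factor binds there.

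The leading class of many members was the same in every library. Of the 41 members with at least 50 UMIs, 16 (39.0%) had the same leading class by CPM in all 3 libraries, against 16.9% of the 16829 genes with as many UMIs. Those 16 were led by stellate-like nuclei for 8 genes, by mesothelial-like nuclei for 5 and by cholangiocyte-like nuclei for 3. Of all genes with as many UMIs, 2.29%, 3.02% and 2.33% were led by these classes in all 3 libraries, in that order. Between the STZ-HFHC libraries alone 26 members shared their leading class, 11 of them stellate-like, 8 mesothelial-like, 5 cholangiocyte-like and 2 macrophage-like (Mmp12 and Mmp27). No share of all genes was taken for that count, so it is a description only. No member was led by hepatocyte-like nuclei in both STZ-HFHC libraries. Classes with few nuclei hold few UMIs, and the lead of such a class can rest on single counts.

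**Figure D3:**
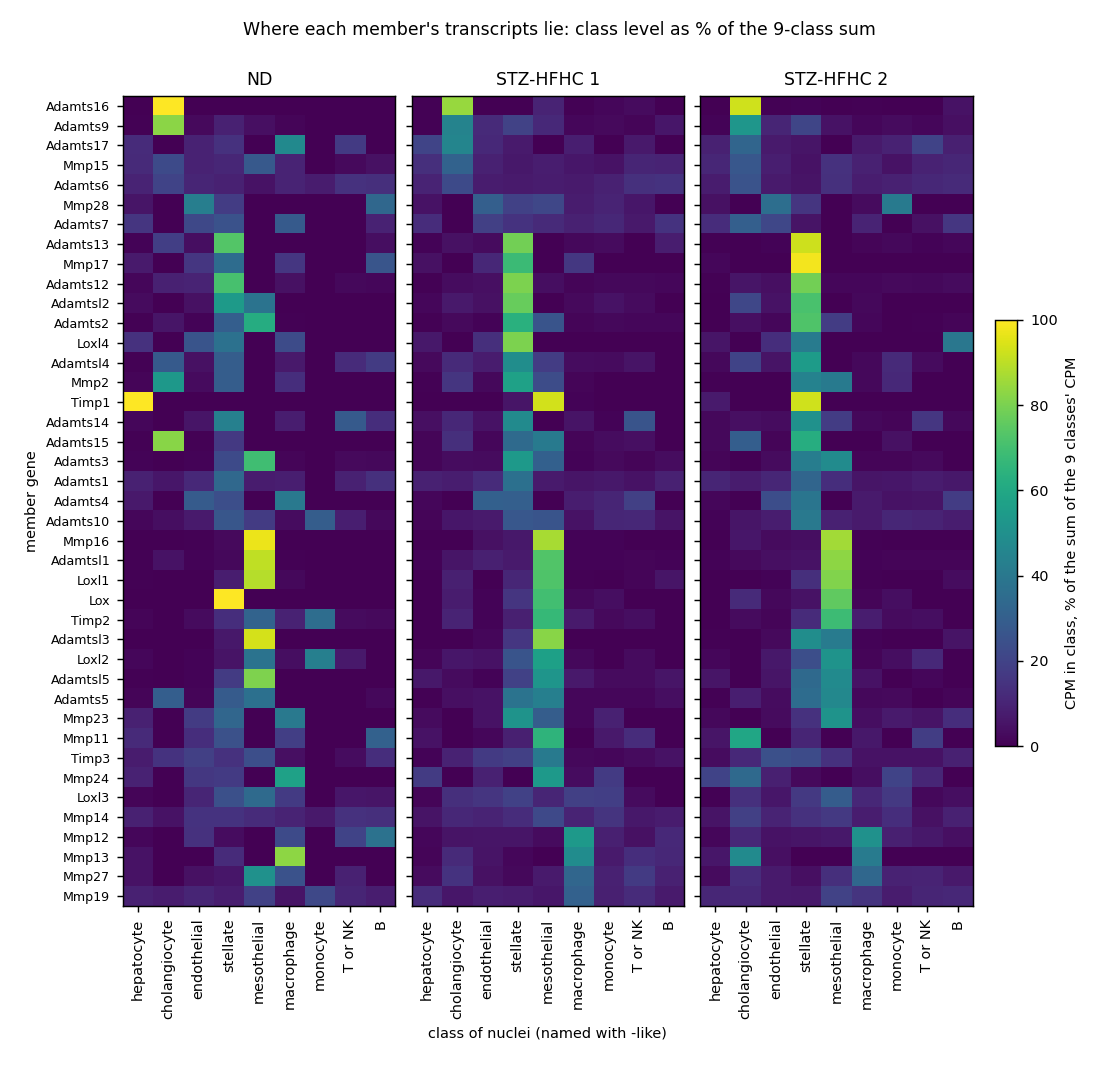
Level of each of the 41 members with at least 50 UMIs in 9 classes of nuclei, as percent of the sum of the 9 CPM values, in ND, STZ-HFHC 1 and STZ-HFHC 2. Adamts12 and Adamts13 are brightest in stellate-like nuclei of each library, Adamtsl1 and Mmp16 in mesothelial-like and Adamts16 in cholangiocyte-like nuclei.

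For some of these members the levels in the leading class were as follows. Adamts13, which cuts von Willebrand factor and is known to be made by stellate cells, was at 31.3, 55 and 91.6 CPM in stellate-like nuclei, and at no more than 1.93 CPM in endothelial-like or hepatocyte-like nuclei. Adamtsl1, a matrix protein without protease domain, was at 448, 701 and 699 CPM in mesothelial-like nuclei. Mmp16, a membrane-bound MMP, followed the same pattern with 29.2, 68.7 and 48.4 CPM in that class against at most 5.12 CPM in stellate-like nuclei, from only 3, 15 and 7 UMIs. Adamts16 was found in cholangiocyte-like nuclei at 63.0, 39.0 and 66.3 CPM (8, 13 and 20 UMIs), with 1, 0 and 3 UMIs in stellate-like nuclei. Adamts9, which trims proteoglycans, also led in cholangiocyte-like nuclei with 205, 324 and 292 CPM, above 22.9, 143 and 117 CPM in stellate-like nuclei. These members were taken from those with the same leading class in all 3 libraries. That each lead recurs in every mouse therefore follows from the choice.

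A size rule was used for STZ-HFHC against ND, because 1 ND mouse allows no test. A gene with at least 50 UMIs in the nuclei compared was called higher or lower when both STZ-HFHC libraries differed from ND by at least 2-fold in the same direction. Over all nuclei 18 of 41 members were higher and 1, Mmp17, was lower, while 13.6% of all genes were higher and 4.74% lower. In stellate-like nuclei 16 of 27 were higher (11.6% of all genes), in hepatocyte-like nuclei 7 of 25 (8.78%), in endothelial-like nuclei 4 of 13 (8.2%) and in macrophage-like nuclei 9 of 15 (14.9%). No member was lower in these 4 classes, where 8.34%, 5.87%, 5.41% and 5.49% of all genes were. The median log2 ratio of the members was 1.63 in stellate-like nuclei against 0.03 for all genes, 0.67 against 0.09 in hepatocyte-like, 0.79 against 0.10 in endothelial-like and 1.38 against 0.17 in macrophage-like nuclei. All of these comparisons share the same 3 mice and are not independent of each other. Nuclei were also thinned to 1000 UMIs each, which left out 587, 789 and 645 shallower nuclei, and were then clustered and named anew. The classes so named need not hold the same nuclei as above. Fewer members had 50 UMIs, and the calls were fewer. In stellate-like nuclei Adamts14, Adamts9 and Mmp12 of 19 members were higher and Adamts1 lower, against 4.28% and 2.65% of all genes. In endothelial-like nuclei Adamts9 and Mmp12 of 9 were higher and 0 lower (7.37% and 4.02% of all genes). In hepatocyte-like nuclei Mmp12 of 13 was higher and Adamts12 and Timp3 lower (4.34% and 5.81%), and in macrophage-like nuclei Mmp12 of 9 was higher and Adamts10 lower (11.7% and 12.6%). The minimum of 50 UMIs is summed over libraries, so a member can pass through the STZ-HFHC libraries alone, and in macrophage-like nuclei ND held 1030185 UMIs against 3601455 and 2790115. The counts of members called are therefore a description and not a support for a direction.

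In stellate-like nuclei the higher members included 7 of 11 ADAMTS, 3 of 5 ADAMTS-like, 2 of 2 TIMP, 2 of 3 lysyl oxidase and 2 of 6 MMP genes. Adamts12, a secreted protease of the family, was at 62.0, 486 and 327 CPM (428, 1044 and 1412 UMIs). Adamts2, which removes the N-terminal propeptide of collagens I and III, was at 42.3, 214 and 170 CPM. Adamts14, with the same activity, was at 5.36, 39.1 and 39.1 CPM, a ratio of 7.31 (4.91 to 11.1) in STZ-HFHC 1 and 7.30 (5.09 to 10.7) in STZ-HFHC 2. The third procollagen N-proteinase, Adamts3, was at 15.6, 96.4 and 66.6 CPM. All 3 were above ND in each STZ-HFHC mouse on the CPM scale.

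These ratios changed with the scale and with the nuclei summed. The stellate markers include the matrix genes Col1a1, Col1a2, Col3a1, Col14a1 and Dcn, so their sum does not measure cell identity alone. The 11 stellate markers together were at 1533, 5911 and 4637 CPM, each of the 11 was above ND in both, and the hepatocyte markers were at 14771, 7047 and 9269 CPM. Median depth was 4626 UMIs per nucleus in ND and 2333 and 2288.5 in STZ-HFHC. Relative to the stellate markers of the same library, 2 of 27 members were higher (Mmp12 and Adamtsl3) and 3 lower (Adamts6, Mmp15 and Mmp19), while 0.846% of all genes were higher and 75.6% lower on this scale. Within cluster 5, where the marker sum of 7443 CPM in ND was above those of STZ-HFHC (5912 and 4640), 2 of 25 were higher (Mmp12 and Adamts9) and 3 lower (Adamts1, Adamtsl2 and Mmp2), against 6.33% and 5.09% of all genes. The part of this marker difference in the counts on the CPM scale was not tested beyond these 2 comparisons, both added after the values had been seen.

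**Figure D4:**
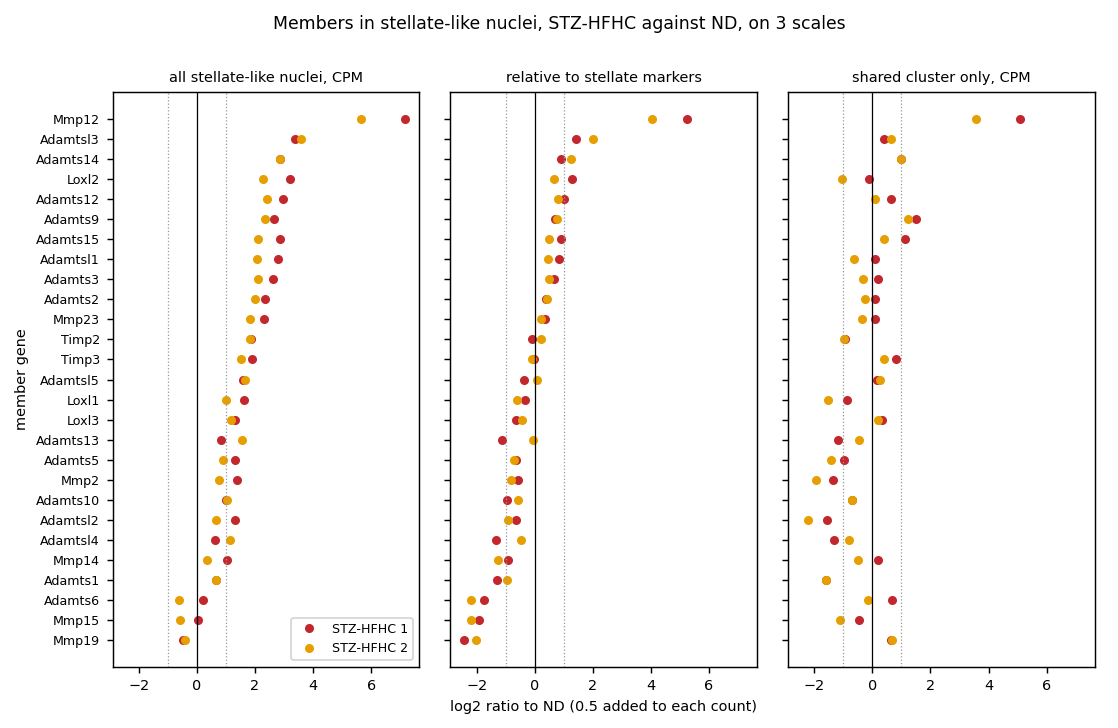
Log2 ratio to ND of the 27 members with at least 50 UMIs in stellate-like nuclei, for STZ-HFHC 1 and 2, over all such nuclei (left), relative to the stellate markers (middle) and in the shared cluster 5 alone (right). Dotted lines mark the 2-fold limits. Past the right limit in both mice lie 16 genes on the left, 2 in the middle and 2 on the right.

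Adamts9 was the member beside Mmp12 that passed within cluster 5. It was at 49.0, 143 and 117 CPM (16, 306 and 505 UMIs), a mean log2 ratio of 1.36 ± 0.20 (SD, n = 2 STZ-HFHC mice). Adamts14 came close to the limit there, at 18.4 CPM (6 UMIs) in ND and 39.2 in both STZ-HFHC mice. By contrast, Adamts2 in cluster 5 was at 202, 214 and 170 CPM and Adamts3 at 82.7, 96.6 and 66.7 CPM, with ND between the STZ-HFHC mice. Adamts12 was at 309 CPM in ND (252 to 376) and at 487 and 327 CPM, so STZ-HFHC 2 lay within the ND interval. Adamts1, an aggrecan-cleaving protease, went the other way in cluster 5, at 208 CPM in ND against 69 and 69.3. Adamtsl3 was called higher relative to the markers but not in cluster 5, where ND had 3 UMIs (9.19 CPM) against 14.0 and 16.5 CPM. For Adamts13, ND was highest in cluster 5, at 126 CPM against 55 and 91.8 CPM in STZ-HFHC.

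In hepatocyte-like nuclei the 7 higher members were Mmp12, Adamtsl5, Adamts14, Mmp24, Adamts3, Adamts9 and Adamtsl1. Adamtsl5 (ENSMUSG00000043822, chr10:80339110-80348412, minus strand), a fibrillin-binding matrix protein, was at 0.275, 6.22 and 3.27 CPM (5, 164 and 115 UMIs). Its ratio to ND was 22.6 (9.51 to 70.7) and 11.9 (4.96 to 37.4). Adamts14 had 4, 91 and 60 UMIs, with ratios of 15.7 (5.93 to 58.9) and 7.77 (2.88 to 29.5). Mmp24, a membrane-bound MMP best known from neurons, had 3, 39 and 68 UMIs, with ratios of 8.97 (2.85 to 45.4) and 11.7 (3.85 to 58.4). All 3 were above ND in both mice beyond counting error, from low levels. The hepatocyte markers themselves were lower in STZ-HFHC, at 14817 and 16291 CPM against 20298 in ND, and relative to them these 7 members and Mmp28 were higher (15.2% of all genes, with 2.83% lower).

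Adamtsl5 and Adamts14 in these nuclei stood above the share that stellate transcripts had there. The hepatocyte-like level of Adamtsl5 was 33.4% and 16.4% of the stellate-like level in STZ-HFHC 1 and 2, and that of Adamts14 8.81% and 4.37%, while the 11 stellate markers were at 0.880% and 0.775%. Adamts12, led by the same class, was at 0.740% and 0.775%, like the markers. Adamts14 was also counted in T or NK-like nuclei, with 2, 16 and 12 UMIs, at 54.4% and 31.4% of the stellate-like level in STZ-HFHC 1 and 2, against 2.82% and 1.72% for the stellate markers. The part of RNA from other nuclei, of any class, in the hepatocyte-like levels of Adamtsl5 and Adamts14 was not tested.

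Among the hepatocyte-like clusters these members were not evenly spread. Adamtsl5 was highest in cluster 12, a cluster with Areg and Nrg1 among its leading genes (980 and 155 STZ-HFHC nuclei), at 13.2 and 11.3 CPM. The hepatocyte markers in cluster 12 were at 9914 and 9180 CPM, against 19352 and 19679 in cluster 2, and their part in this peak was not tested. Elsewhere in STZ-HFHC Adamtsl5 was at 0.870 to 4.48 CPM, leaving out the small cluster 22, and in the ND clusters 1 and 14 at 0.212 and 0.511 CPM. Adamts14 followed it, at 6.82 and 6.61 CPM in cluster 12 and at 1.25 to 2.65 CPM in clusters 2, 3 and 16. Adamtsl1 instead was highest in cluster 2, at 18.3 and 13.2 CPM, with 3.23 to 6.61 CPM in clusters 3, 12 and 16 and 2.83 and 4.09 CPM in the ND clusters. Mmp12 had a narrower range over these clusters within a mouse, at 13.5 to 19.3 CPM in STZ-HFHC 1 and 5.17 to 8.50 CPM in STZ-HFHC 2. Cluster 3, which had the T cell marker Themis among its leading genes, is named hepatocyte-like with reserve. Without it 8 members were higher, Mmp27 and the 7 above. No share of all genes is given for that count, so it is a description only.

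**Figure D5:**
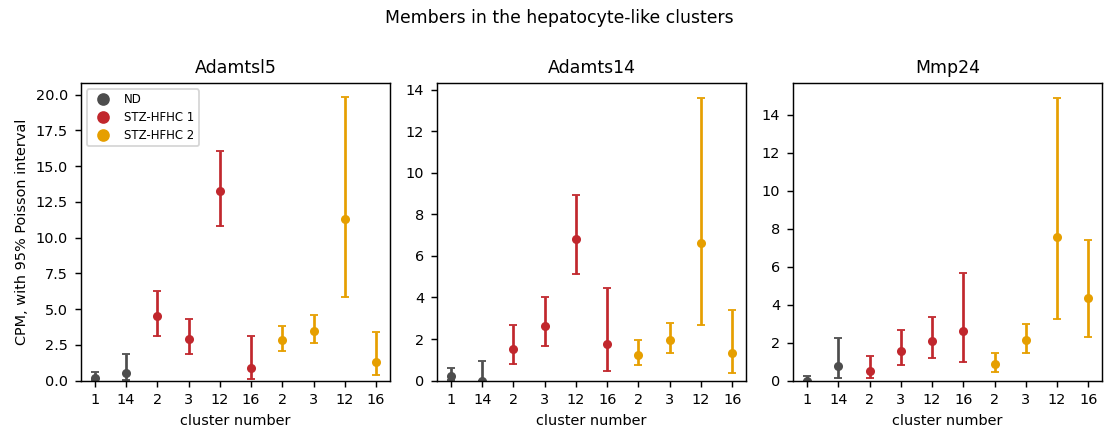
Levels (CPM, linear axis) of Adamtsl5, Adamts14 and Mmp24 in the hepatocyte-like clusters other than cluster 22, by library, with 95% Poisson intervals. Adamtsl5 and Adamts14 are highest in cluster 12 of both STZ-HFHC libraries, and Mmp24 is higher in clusters 12 and 16 than in cluster 2.

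Endothelial-like nuclei had 4 higher members, Mmp12, Adamts9, Adamtsl1 and Timp3. Without STZ-HFHC 2, 7 of 12 were higher (14.2% of all genes). Adamts9 was at 6.37, 85.8 and 56.9 CPM (46, 222 and 196 UMIs), with ratios of 13.5 (9.77 to 18.9) and 8.93 (6.45 to 12.6). Adamtsl1 was at 5.40, 84.2 and 33.7 CPM, and STZ-HFHC 1 was above STZ-HFHC 2 beyond counting error (95% interval of their ratio 1.99 to 3.16). Its locus overlaps that of Sh3gl2 on the same strand, where reads of the 2 genes may not be told apart. The 10 endothelial markers were 2.37 and 1.61 times ND in this class, and all 10 were above ND in both mice. Relative to them, Mmp12, Adamts9 and Adamtsl1 stayed higher, with mean log2 ratios of 3.52 ± 0.84, 2.47 ± 0.02 and 2.32 ± 0.54 (SD, n = 2), Timp3 was not called, and Mmp19 was lower, where 1.88% of all genes were higher and 24.0% lower. ND nuclei were mostly in cluster 10 (1179 of 1194) and STZ-HFHC nuclei in cluster 6. The hepatocyte markers in this class were at 15708, 9545 and 12889 CPM, and the median depth was 5246, 1752.5 and 1892 UMIs per nucleus.

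Beside Mmp12, the macrophage-like nuclei had 8 higher members, Adamts9, Adamts10, Adamtsl1, Loxl3, Mmp13, Mmp19, Mmp27 and Timp2. Mmp19, an MMP of broad substrates, was at 10.7, 47.8 and 26.2 CPM (11, 172 and 73 UMIs). Of these 8, none was higher relative to the 14 macrophage markers, whose sum was 939 CPM in ND and 2534 and 1477 in STZ-HFHC, and Mmp12 alone passed on that scale (4.7% of all genes higher, 22.7% lower). The hepatocyte markers in this class were at 17310, 8349 and 12741 CPM. ND had 244 macrophage-like nuclei, and each of the 8 rested on 11 or fewer ND UMIs. Without STZ-HFHC 1, 5 of 7 members were higher (13.6% of all genes), and Adamts9, Adamtsl1, Loxl3 and Mmp13 no longer had 50 UMIs.

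Among the TIMPs, Timp3, which is held in the matrix and inhibits MMPs and ADAMTS proteins, was counted most often, with 741, 992 and 1268 UMIs over all nuclei. It was at 30.7, 80.0 and 71.7 CPM in endothelial-like and at 23.3, 87.6 and 66.4 CPM in stellate-like nuclei, and in both classes ND was lowest, although after thinning the endothelial-like mean log2 ratio was -0.13. In hepatocyte-like nuclei, by contrast, ND was highest, at 12.4 CPM against 5.27 and 9.62. Relative to the markers of each class the mean log2 ratios of Timp3 were 0.33 ± 0.28 in endothelial-like and -0.06 ± 0.04 in stellate-like nuclei (SD, n = 2). Timp2, an inhibitor that also takes part in the activation of MMP2, was at 8.11, 29.4 and 28.7 CPM in stellate-like nuclei, but in cluster 5 alone ND was highest, at 55.2 CPM against 29.4 and 28.7. In mesothelial-like nuclei Timp2 was at 19.5, 225 and 159 CPM, from 2, 49 and 23 UMIs.

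Timp1, the inhibitor most often raised in fibrotic liver, had 1, 55 and 14 UMIs over all nuclei. The ratios of 53.0 (95% interval 9.12 to 2130) and 10.7 (1.64 to 455) were both above 1 beyond counting error, with wide intervals. In STZ-HFHC 1, 25 of the 55 UMIs were in 10 mesothelial-like nuclei, 8 of them in a single nucleus, and 15 in 8 stellate-like nuclei. In STZ-HFHC 2 stellate-like nuclei held 8 of 14 UMIs and mesothelial-like nuclei none. Timp4 had 1 UMI, in STZ-HFHC 1. Timp1, Timp3 and Timp4 each overlap a synapsin gene on the other strand, Syn1, Syn3 and Syn2 in that order, and Timp2 overlaps Cep295nl on the same strand.

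Of the lysyl oxidases, Lox, the founding member, had 1, 34 and 16 UMIs over all nuclei, with ratios of 32.7 (5.49 to 1331) and 12.3 (1.91 to 515). Its UMIs in STZ-HFHC were mostly in stellate-like (13 and 6) and mesothelial-like nuclei (6 and 3). Loxl2 was at 1.30, 12.6 and 6.48 CPM in stellate-like nuclei (9, 27 and 28 UMIs), and in cluster 5 at 12.3, 12.6 and 6.49 CPM. Loxl3 was at 6.95, 17.2 and 15.7 CPM in stellate-like and at 4.85, 16.9 and 10.8 CPM in macrophage-like nuclei. Loxl1 led in mesothelial-like nuclei of each library, at 38.9, 73.3 and 41.5 CPM, and was at 3.47, 10.7 and 6.94 CPM in stellate-like nuclei. Loxl4 had fewer counts over all nuclei in STZ-HFHC, with 32, 11 and 21 UMIs, and STZ-HFHC 2 was just short of 2-fold at a ratio of 0.504 (0.276 to 0.901). The ratios of Loxl1 in stellate-like nuclei were 3.08 (1.66 to 5.70) and 2.00 (1.13 to 3.57), the second just short of the size rule. In cluster 5 alone, however, ND was highest for Loxl1, at 18.4 CPM (6 UMIs) against 10.7 and 6.72 CPM. Relative to the markers its mean log2 ratio was -0.46. The stellate-like difference of Loxl2 was not seen within the shared cluster, and that of Loxl3 turned to a mean log2 ratio of -0.21 after thinning and of -0.53 relative to the markers.

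MMPs with known roles in liver matrix were often scarce. Mmp2, a gelatinase of stellate cells, had 40, 37 and 43 UMIs over all nuclei and was at 4.34, 11.2 and 7.40 CPM in stellate-like nuclei. Mmp9, the other gelatinase, had 2, 19 and 9 UMIs, and its ratio in STZ-HFHC 2 of 3.46 (0.715 to 32.9) was within counting error. Mmp14, the membrane-bound activator of Mmp2, was counted widely, with 17.1, 28.2 and 16.3 CPM over all nuclei, and STZ-HFHC 2 did not differ from ND beyond counting error. Mmp17, the member called lower, had 33, 16 and 18 UMIs, and after thinning its mean log2 ratio was 0.056. The 14 members under 50 UMIs were Adamts8, Adamts18, Adamts19, Adamts20, Mmp1b, Mmp3, Mmp7, Mmp8, Mmp9, Mmp10, Mmp20, Mmp21, Mmp25 and Timp4. For them differences of moderate size were not detectable at this depth. Of the 24 UMIs of Mmp7, known from bile duct cells, 13 were in cholangiocyte-like nuclei of STZ-HFHC.

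The other genes of matrix turnover were taken from 4 lists. In stellate-like nuclei, where 11.6% of all genes were higher, 6 of 12 measured matrix proteases were higher and 1 lower, 3 of 7 inhibitors higher and 2 lower, 6 of 12 genes of crosslinking and collagen processing higher and 0 lower, and 12 of 15 matrix substrates higher and 1 lower. Their median log2 ratios were 1.13, 0.84, 0.78 and 2.49, and these counts stand beside the same stellate marker difference as above. Among the proteases Fap, a serine protease of activated fibroblasts, was at 8.83, 27.5 and 30.3 CPM, and in the inhibitor list Serpinh1, a serpin known as a collagen chaperone, was at 4.49, 36.3 and 21.1 CPM. Plod2, which hydroxylates collagen lysines before crosslinking, was at 9.70, 67.6 and 57.4 CPM. Of the substrates, Postn was at 9.41, 79.7 and 91.9 CPM, Tnc at 1.30, 46.1 and 28.2 CPM, and Fn1 was lower, at 778, 299 and 281 CPM. The hepatocyte markers in stellate-like nuclei were likewise lower in STZ-HFHC, at 14771, 7047 and 9269 CPM, and their part in the Fn1 level was not tested. Bmp1, a procollagen C-proteinase, was lower in the same nuclei, at 249, 57.8 and 71.5 CPM. On the CPM scale the N-proteinases named above (Adamts2, Adamts3 and Adamts14) were higher there. Relative to the stellate markers, and within the shared stellate-like cluster, none of them was called. In that cluster Adamts2 was at 202, 214 and 170 CPM, Adamts3 at 82.7, 96.6 and 66.7, and Adamts14 at 18.4, 39.2 and 39.2. Bmp1 values are not given for these comparisons, so the contrast is limited to CPM over all stellate-like nuclei. Bmp1 was not particular to stellate-like nuclei, with 275, 89.9 and 109 CPM in hepatocyte-like and 264, 49.1 and 73.1 CPM in endothelial-like nuclei.

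In the other classes fewer list members were measured. Over all nuclei (13.6% of all genes higher) 7 of 18 proteases, 1 of 7 inhibitors, 3 of 13 crosslinking genes and 10 of 18 substrates were higher, with 1, 1, 0 and 1 lower. Endothelial-like nuclei (8.2%) had 3 of 11, 0 of 5, 2 of 10 and 7 of 9 higher, and hepatocyte-like nuclei (8.78%) 4 of 13, 0 of 6, 1 of 12 and 3 of 11. In macrophage-like nuclei (14.9%) 5 of 11, 0 of 4, 3 of 9 and 2 of 5 were higher. In the same order of lists, 1, 1, 0 and 1 were lower in endothelial-like nuclei (5.41% of all genes) and in macrophage-like nuclei (5.49%). Hepatocyte-like nuclei had 2, 1, 0 and 1 lower (5.87%). The differences between the classes were not tested.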

How the data were processed

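Nuclei were isolated from frozen mouse liver and profiled with 10x 3' sNuc-Seq. The authors deposited 1 filtered matrix per library of whole-number UMI counts per gene and barcode, made with Cell Ranger 7.0.1 against mm10 according to the submitters' processing notes. Whether intronic reads were counted and whether ambient RNA was removed is not given in the sources used here. The counts were used as deposited, without normalization across libraries.

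Of 30989 barcodes, 28336 with 200 to 5000 genes and at most 5% mitochondrial UMIs were kept. A nucleus held 4068, 3015 and 4027 UMIs in the median (ND, STZ-HFHC 1, STZ-HFHC 2). The 3 libraries shared 71 barcode sequences in pairs. Scrublet called 1 doublet in all, so its automatic threshold had not worked, and the highest 8% of scores were left out in an alternative. Nuclei were clustered in Scanpy 1.11.5 (2000 variable genes without the 55 members, 30 principal components, 15 neighbors, Leiden resolution 1) into 22 clusters, and 9 classes were named from marker lists without members. Stellate, smooth muscle and mesothelial markers were allowed to occur together, an exemption made after the clusters were seen.

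Counts were summed per class and library, because nuclei are not replicates. The size rule needed at least 50 UMIs and log2 ratios to ND (0.5 counts added) that were 1 or larger in size for each STZ-HFHC library, with 1 sign. No test over animals was possible with 1 ND mouse. Intervals at 95% are exact Poisson, or conditional binomial for ratios, and cover counting error only. SDs are over the 2 STZ-HFHC mice. Motifs were searched in RefSeq promoters of GRCm38.p6. The rule for named genes took Mmp9, Mmp12, the TIMPs and the lysyl oxidases, in each comparison up to 5 higher and 5 lower members past the size rule with the largest smaller ratio, members whose leading class was the same in all 3 libraries and at least 4 times the second, and up to 3 genes per pathway list. Other genes named were chosen after their values were seen. The members, lists and rules were chosen with earlier results of these data known. The code of the log2 ratios and of the size rule was tested on simulated data. The code of the intervals was not part of that test.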

Additional observations from a re-analysis of the deposited data

Results flagged for a closer look

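Timp3 moved in opposite directions between classes in both STZ-HFHC mice. Its mean log2 ratio to ND was 1.30 in endothelial-like and 1.71 in stellate-like nuclei, and in hepatocyte-like nuclei it was -0.80. Mmp19 had a mean log2 ratio of 1.67 in macrophage-like nuclei and of -0.70 in endothelial-like nuclei. Relative to the markers of each class the values were 0.33, -0.06 and -0.41 for Timp3 in endothelial-like, stellate-like and hepatocyte-like nuclei, and 0.63 and -1.66 for Mmp19 in macrophage-like and endothelial-like nuclei. These differences between classes were not tested, because each rests on the same ND mouse.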

How the results depend on the processing

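No paired analysis was possible because ND is 1 library and the groups share fewer than 2 replicate numbers. The count of members past the size rule was 19 over all nuclei, 10 with nuclei thinned to 1000 UMIs (clustered and named anew, without shallower nuclei) and 6 with a log2 ratio of at least 2. In hepatocyte-like nuclei it was 7, 3 thinned (1 higher, 2 lower), 15 with at least 10 UMIs, 18 with no minimum and 4 with a log2 ratio of at least 2. In endothelial-like nuclei it was 4, 8 over all deposited barcodes, 2 thinned, 14 with at least 10 UMIs, 27 with no minimum and 14, without Timp3, with the mixed cluster 7 added (38 ND, 729 STZ-HFHC 1 and 918 STZ-HFHC 2 nuclei). In stellate-like nuclei it was 16, 7 over all barcodes (3 higher, 4 lower), 4 thinned, 10 with a log2 ratio of at least 2, and 5 (2 higher, 3 lower) both relative to the class markers and in cluster 5 alone. In macrophage-like nuclei it was 9, 2 thinned, 22 with no minimum, and 1 with a log2 ratio of at least 2 or relative to the class markers. With cluster 7 added there it was 10, without Loxl3, Mmp13, Mmp19, Mmp27 and Timp2 and with Timp3, Adamts2, Adamts3, Adamts12, Adamts14 and Adamtsl5. Leaving out 1 STZ-HFHC library gave 15 to 19 over all nuclei, 7 to 9 in hepatocyte-like, 4 to 7 in endothelial-like, 16 to 17 in stellate-like and 5 to 9 in macrophage-like nuclei. Counts with no minimum take in both directions, and the 0.5 counts added and unequal class totals can alone carry a member past the rule. Mmp24, with 1 UMI per library in macrophage-like nuclei, passed as lower there, at log2 ratios of -1.81 and -1.44. For most of these settings no share of all genes is given, so the counts are a description. Log2 ratios changed sign for Timp2 in stellate-like nuclei (-1.01 over all barcodes, -0.51 thinned, -0.96 in cluster 5), Loxl2 there (-0.51 over all barcodes, -0.58 in cluster 5), Loxl3 there (-0.21 thinned, -0.53 relative to the markers), Adamtsl5 there (-0.14 over all barcodes, -0.34 thinned, -0.15 relative to the markers), Adamts3 there (-0.13 over all barcodes, -0.067 in cluster 5), Timp3 in endothelial-like nuclei (-0.13 thinned), Mmp13 in macrophage-like nuclei (-0.77 thinned) and Mmp17 over all nuclei (0.056 thinned). Of 169 values of named genes under the other settings listed at the outset, 157 kept their direction, 112 moved by less than the spread between the STZ-HFHC mice, 47 moved by more and 10 reversed. Of 33 values under settings chosen after seeing the data, 6 moved by less than that spread, 22 by more and 5 reversed. The comparisons relative to markers, in cluster 5 and with clusters added or left out were chosen after seeing the data, and the cause of the changes was not tested. Leiden resolution 0.5 gave no usable endothelial-like class, and all barcodes, resolution 2 and members among the variable genes gave none that was macrophage-like, so these were not run.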
